A study of Homo sapiens with 12 samples.

Results

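The genes described here are 30 human genes of cholesterol and fatty acid synthesis, taken from a fixed list and found by symbol among the 60664 genes of the deposited count table. They comprise 18 sterol pathway enzymes, 6 regulators of the pathway with the sterol carrier STARD4, and 6 fatty acid enzymes. All 30 had enough counts to be tested, among 17960 tested genes. The study grew SK-N-SH, a human neuroblastoma cell line that holds neuron-like and flat substrate-adherent cells, on surfaces of 1 kPa, 8 kPa or 30 kPa and sequenced total RNA from 4 libraries at each stiffness. Kilopascal (kPa) is a unit of elastic modulus, so 1 kPa is the softest and 30 kPa the stiffest surface. The labels name no drug, mutation or transgene in any group, and the material of the surface and the time in culture are not given in the sources used here. They number the libraries within a stiffness without saying whether these came from separate cultures, so p-values rest on the spread among these libraries and part of that spread may be technical.

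Cells build cholesterol from acetyl-CoA by the mevalonate pathway, which first makes isoprenoid units, joins them into squalene and then closes and trims the sterol rings. The transcription factors SREBP-1 and SREBP-2, made from SREBF1 and SREBF2, switch on these enzymes and those of fatty acid synthesis when membrane sterol is low. SCAP carries the SREBP precursors out of the endoplasmic reticulum for cleavage, and the INSIG proteins hold SCAP back when sterol is plentiful. Fatty acids are made from the same acetyl-CoA and are then lengthened and desaturated for membrane lipids.

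The libraries held 1.43e+07 to 1.59e+07 counts on the 1 kPa surface, 1.50e+07 to 2.53e+07 on 8 kPa and 2.39e+07 to 2.78e+07 on 30 kPa. The 4 libraries at 1 kPa and 8 kPa replicate 1 were shallow and the other 7 were deep, so the stiffness and the depth of 1 kPa against 30 kPa cannot be told apart. In bulk RNA, fewer cells of a type and less RNA per cell cannot be told apart either. Levels below are CPM, counts relative to the library total after TMM scaling, a method that aligns library sizes on the bulk of the genes. Mesenchymal markers of the flat cells were abundant (summed level 7790 ± 599, 7160 ± 499 and 7080 ± 306 CPM in order of stiffness; SD, n = 4). Among adrenergic markers of the neuron-like cells the summed level was 861 ± 181, 1130 ± 181 and 1060 ± 68.1 CPM, while TH, the tyrosine hydroxylase of catecholamine synthesis, was at or near 0 in every library. Lists of 4 immune, 4 adipocyte and 4 hepatocyte markers summed to at most 0.646, 0.262 and 8.47 CPM in any library, the last almost wholly from SERPINA1. The 5 epithelial markers summed to 53.7 ± 5.79, 57.0 ± 10.6 and 56.4 ± 5.84 CPM, mostly from the keratins KRT8 and KRT18, and the 4 endothelial markers to 5.77 ± 2.74, 5.83 ± 2.72 and 1.84 ± 0.271 CPM, mostly from PECAM1.

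SREBP proteins bind sterol regulatory elements near gene starts, usually beside boxes for the factors NF-Y and Sp1. Stretches upstream of the start are shown for 4 members picked by hand, the regulators SREBF2 and INSIG1 and the enzymes HMGCS1 and SCD. They come from RefSeq on GRCh38.p14, read in the direction of the gene, and end at the first annotated start of either RefSeq or GENCODE v29. Capitals mark a match to the sterol element TCACNCCAC or to the NF-Y box CCAAT on either strand (ATTGG when read from the other strand). The stretches lie at chr22:41832855-41833078 (plus strand) for SREBF2, chr7:155297628-155297775 (plus strand) for INSIG1, chr5:43313513-43313662 (minus strand) for HMGCS1 and chr10:100346983-100347123 (plus strand) for SCD.
SREBF2: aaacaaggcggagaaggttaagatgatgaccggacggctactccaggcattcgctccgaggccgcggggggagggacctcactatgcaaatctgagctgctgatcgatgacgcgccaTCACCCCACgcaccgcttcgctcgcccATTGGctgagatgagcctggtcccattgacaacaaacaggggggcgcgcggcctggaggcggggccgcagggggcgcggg
INSIG1: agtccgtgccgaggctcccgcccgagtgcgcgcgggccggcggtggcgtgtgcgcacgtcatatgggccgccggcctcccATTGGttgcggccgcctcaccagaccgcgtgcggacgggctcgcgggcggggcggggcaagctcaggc
HMGCS1: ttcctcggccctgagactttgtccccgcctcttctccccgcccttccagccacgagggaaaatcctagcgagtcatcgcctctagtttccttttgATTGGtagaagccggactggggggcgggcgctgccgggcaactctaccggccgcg
SCD: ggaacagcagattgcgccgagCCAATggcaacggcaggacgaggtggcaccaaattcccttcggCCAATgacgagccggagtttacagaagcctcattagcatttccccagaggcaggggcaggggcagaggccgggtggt

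Windows of 250 bases before the RefSeq start were at hand for 26 of the 30 members. None was at hand for ACAT2, FDFT1, SQLE and FASN, so these genes were not searched. The letters TCACNCCAC stood in 1 of them, SREBF2, and in 0.875% of the 27305 windows of all genes. The CCAAT box stood in 16 of the 26, against 33.0% of all windows, and the Sp1 box GGGCGG in 24 of the 26, against 42.3% of all windows. The windows of all genes were not matched to the members by gene type, expression or base composition. Both strands were searched for all 3 motifs, and none of the 26 members held overlapping matches of different motifs. These are matches of letters in one short window and say nothing of binding in these cells.

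Across the 30 genes the levels at the 3 stiffnesses lay close together. The median log2 fold change of the members was 0.07 for 8 against 1 kPa, −0.01 for 30 against 8 kPa and 0.06 for 30 against 1 kPa, against −0.01, 0 and 0 over all tested genes. The 95% interval of the log2 fold change lay within 0.5 of 0 for 28, 28 and 29 of the 30 members in those comparisons. Over all tested genes, which include many with low counts, that share was 56.5%, 65.1% and 62.3%. The exceptions were ACAT2 and CYP51A1 in the first 2 comparisons and CYP51A1 in the last. Of the 30 members 23 had a positive fold change for 8 against 1 kPa, 14 for 30 against 8 kPa and 19 for 30 against 1 kPa, against 47.6%, 50.9% and 50% of all tested genes.

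**Figure D1:**
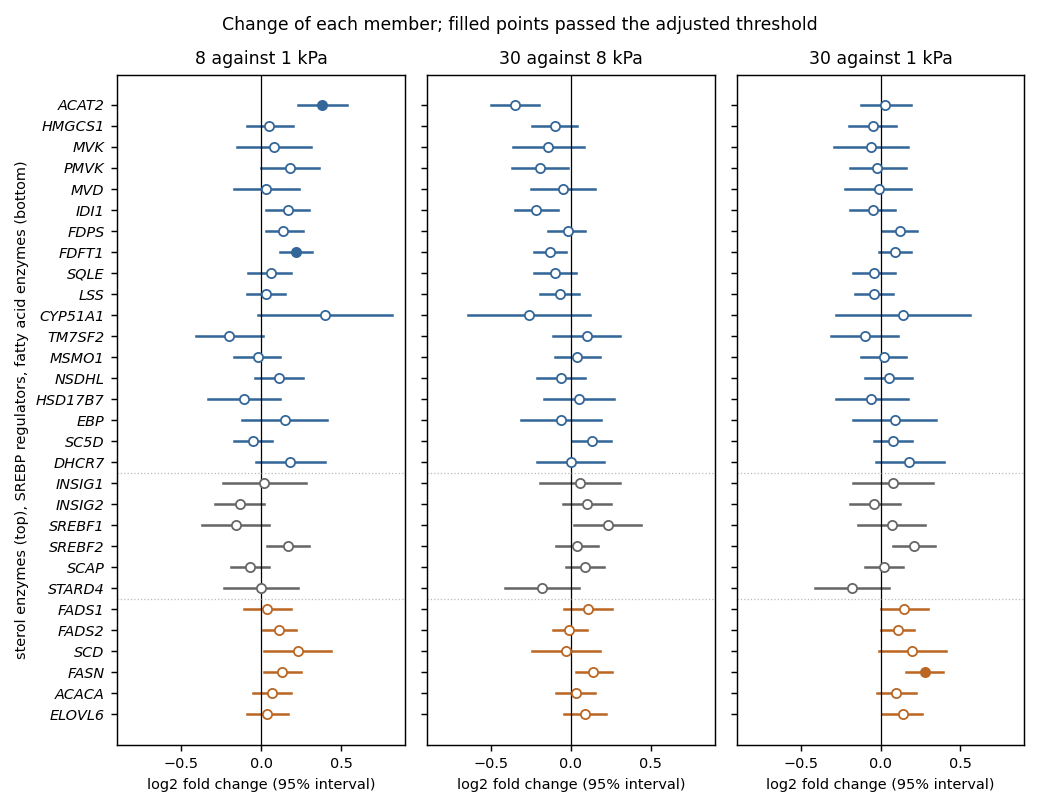
Log2 fold change of each member with its 95% interval for 8 against 1 kPa, 30 against 8 kPa and 30 against 1 kPa, from all 12 libraries in one fit; sterol enzymes are at the top, regulators in the middle and fatty acid enzymes at the bottom, and filled points passed the adjusted threshold of 0.05. Filled points are ACAT2 (0.38) and FDFT1 (0.22) for 8 against 1 kPa and FASN (0.28) for 30 against 1 kPa.

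Between 8 and 1 kPa, 2 of the 30 members passed the adjusted threshold of 0.05, both higher at 8 kPa, while 13.8% of all tested genes passed it (8.17% higher and 5.6% lower). Both are sterol enzymes, ACAT2 and FDFT1. Between 30 and 8 kPa no member passed, and the share over all tested genes was 0%. At an unadjusted p under 0.05 there were 7 members in that pair, against 17.9% of all tested genes. There were 8 for 8 against 1 kPa and 5 for 30 against 1 kPa, against 31.2% and 18.9%. For 30 against 8 kPa DESeq2, run on the whole count table with its own filter, called 2 members. It called 433 genes in all, a number equal to 2.41% of the 17960 tested genes. Between 30 and 1 kPa 1 member, FASN, passed and was higher at 30 kPa, against 2.43% of all tested genes (1.1% higher). The test for any difference among the stiffnesses passed for those 3 genes, and for 9.16% of all tested genes. Counted instead by libraries that did not overlap between groups, 3 members were higher and 0 lower at 8 than at 1 kPa, against 9.41% and 7.36% of all tested genes. Between 30 and 8 kPa 1 member was higher and 3 were lower by that count, against 4.79% and 6.5%, and between 30 and 1 kPa 3 were higher and 0 lower, against 5.33% and 6.06%.

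Among the sterol enzymes, ACAT2, the cytosolic thiolase that joins acetyl-CoA units at the entry to the pathway, lies at chr6:159760328-159779055 on the plus strand of GRCh38. Its level was 28.1, 26.6, 26.5 and 31.1 CPM in the libraries at 1 kPa, 39.5, 37.4, 37.1 and 32.5 CPM at 8 kPa and 28.0, 30.7, 28.3 and 27.8 CPM at 30 kPa. All 4 libraries at 8 kPa stood above every library of the other stiffnesses, and the libraries at 1 and 30 kPa overlapped. ACAT2 rose 1.3-fold at 8 kPa relative to 1 kPa, a log2 change of 0.38 (SE 0.0723, adjusted p = 0.00952). For 30 against 8 kPa its log2 fold change was −0.35 (SE 0.0705), which missed the threshold (adjusted p = 0.106), although DESeq2 called it (adjusted p = 0.00298). It also passed in that pair without 8 kPa replicate 4 (−0.40, adjusted p = 0.016) or without 1 kPa replicate 2, which enters only through the shared spread (adjusted p = 0.0384). For 30 against 1 kPa it was 0.03 with a 95% interval of −0.12 to 0.19. The 3′ end of ACAT2 overlaps TCP1, a chaperonin subunit gene on the opposite strand, by 558 bases, and TCP1 was also higher at 8 kPa (mean 244 CPM, SD 4.53) than at 1 kPa (mean 211 CPM, SD 14.7; n = 4 each), with a log2 fold change of 0.21 and an adjusted p of 0.0324. Without a stated strand setting, reads in that stretch cannot be told apart.

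FDFT1, squalene synthase, makes the first molecule committed to sterols and lies at chr8:11795573-11839309 on the plus strand. It had 73.8, 67.8, 70.0 and 75.3 CPM at 1 kPa, 84.8, 80.4, 86.5 and 81.9 CPM at 8 kPa and 75.4, 77.3, 76.3 and 75.7 CPM at 30 kPa. Here too the 8 kPa libraries were the 4 highest of the 12, with no overlap, and the 30 kPa libraries lay between the other stiffnesses, the lowest at 75.4 CPM against 75.3 CPM in the highest 1 kPa library. FDFT1 rose 1.16-fold at 8 kPa relative to 1 kPa (log2 fold change 0.22, SE 0.0465, adjusted p = 0.0125). That call was lost without 8 kPa replicate 3 (adjusted p = 0.0545). For 30 against 8 kPa the log2 fold change was −0.13 (adjusted p = 0.183), and for 30 against 1 kPa it was 0.09 (adjusted p = 0.337). FDPS, farnesyl diphosphate synthase, which makes the substrate of FDFT1, had 91.9, 92.4, 99.2 and 92.5 CPM at 1 kPa, 98.6, 98.9, 106 and 111 CPM at 8 kPa and 101, 97.9, 107 and 103 CPM at 30 kPa. At 8 kPa 2 of its libraries fell below the 99.2 CPM of 1 kPa replicate 3, and its log2 fold change for 8 against 1 kPa was 0.14 (95% interval 0.03 to 0.26, adjusted p = 0.0827). DESeq2 called FDPS in that pair (adjusted p = 0.0472). It called 3114 genes there, a number equal to 17.3% of the 17960 tested genes.

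**Figure D2:**
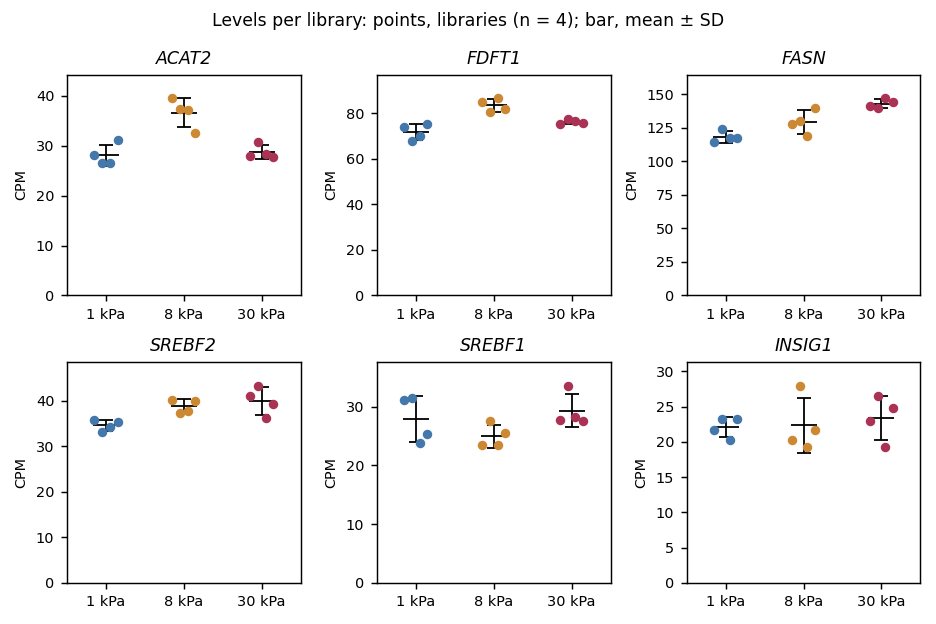
Level in CPM of ACAT2, FDFT1, FASN, SREBF2, SREBF1 and INSIG1 in each library at 1, 8 and 30 kPa; points are libraries (n = 4 per stiffness), bars are the mean ± SD, and each axis starts at 0. ACAT2 and FDFT1 are highest at 8 kPa, FASN is highest at 30 kPa, and the INSIG1 libraries overlap throughout.

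The level at 8 kPa was also set against the mean of 1 and 30 kPa. In that contrast 3 members passed the test, all higher at 8 kPa, while 7.08% of all tested genes passed it (4.42% higher and 2.66% lower). The difference was positive in 19 of the 30 members, against 49.1% of all tested genes, and its 95% interval lay within 0.5 of 0 in 29, against 66.9%. They were ACAT2 (log2 difference 0.36, adjusted p = 0.0231), FDFT1 (0.17, adjusted p = 0.0304) and IDI1 (0.19, adjusted p = 0.0483). IDI1, the isomerase that readies isoprenoid units for joining, is outside the naming rule and was chosen after its values were seen. It had 51.8, 48.6, 52.3 and 59.9 CPM at 1 kPa, 58.4, 61.8, 63.1 and 55.2 CPM at 8 kPa and 52.0, 51.1, 51.6 and 50.7 CPM at 30 kPa. The 8 kPa libraries stood above every 30 kPa library, but 1 kPa replicate 4 lay within their range. None of the 3 genes passed in this contrast without 8 kPa replicate 1, without 8 kPa replicate 3, without 30 kPa replicate 1 or without 30 kPa replicate 2. In the other 8 fits that left out a library, ACAT2 passed in all, FDFT1 in 5 and IDI1 in 2 (without 1 kPa replicate 4 or 8 kPa replicate 4).

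The other 15 sterol enzymes, FDPS among them, passed none of the edgeR tests with all 12 libraries and stiffness as the only term. Summed over the 18, the level was 663 ± 4.15, 702 ± 17.1 and 672 ± 8.85 CPM (SD, n = 4) on 1, 8 and 30 kPa, a description in which the most abundant genes weigh most. Of the 18, 14 had a positive log2 fold change for 8 against 1 kPa (median 0.09), 13 a negative one for 30 against 8 kPa (median −0.06) and 9 a positive one for 30 against 1 kPa (median 0). HMGCS1, the cytosolic HMG-CoA synthase that follows ACAT2, stood at 58.7 ± 5.65, 60.9 ± 4.24 and 56.7 ± 0.799 CPM at 1, 8 and 30 kPa, and its log2 fold change for 8 against 1 kPa was 0.05 (95% interval −0.09 to 0.20). SQLE, squalene epoxidase, stood at 44.1 ± 2.83, 46.0 ± 2.99 and 42.9 ± 1.88 CPM in that order, and LSS, lanosterol synthase, at 42.0 ± 2.15, 43.0 ± 2.63 and 40.9 ± 1.27 CPM. SQLE and LSS act directly after FDFT1. The libraries of HMGCS1, of SQLE and of LSS overlapped between stiffnesses.

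In the late steps that trim and reduce the ring system, the members did not share a direction. TM7SF2, a sterol reductase of the endoplasmic reticulum, had the lowest fold change of the members for 8 against 1 kPa, −0.20 (95% interval −0.41 to 0.01, adjusted p = 0.187), with 53.5 ± 6.15 CPM at 8 kPa and 61.6 ± 9.10 CPM at 1 kPa. DHCR7, the reductase that ends one route to cholesterol, had 0.18 in that comparison (95% interval −0.03 to 0.40). Its 1 kPa replicate 2 stood at 22.2 CPM, above all the libraries at 8 and 30 kPa, and without it DHCR7 passed as higher at 8 and at 30 kPa than at 1 kPa. SC5D, a sterol desaturase, had −0.05 for 8 against 1 kPa and 0.13 for 30 against 8 kPa (95% interval 0.01 to 0.25, adjusted p = 0.243). MSMO1, the monooxygenase that starts removal of the methyl groups, stayed between −0.02 and 0.04 in the 3 comparisons. For MSMO1 the 95% intervals all lay between −0.17 and 0.18.

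CYP51A1, the lanosterol demethylase, carried the widest interval of the members, and few reads fell on it. It had 2.00 ± 0.481 CPM at 1 kPa, 2.64 ± 0.402 CPM at 8 kPa and 2.22 ± 0.378 CPM at 30 kPa, with as few as 19 counts in a library. Its log2 fold change for 8 against 1 kPa was 0.40 with a 95% interval of −0.02 to 0.82 (adjusted p = 0.178). GENCODE v29 places 2 other protein-coding genes over CYP51A1 on the same strand, with overlaps of 22645 and 3030 bases, and both had at most 0.0105 CPM on average at any stiffness. Its level is therefore uncertain, since reads that fit several genes can be left uncounted. Overlapping neighbours also touch MVK, mevalonate kinase, which shares 620 bases with MMAB on the opposite strand, and FDPS, which shares 3804 bases with the antisense RNA RUSC1-AS1. MMAB was higher at 8 than at 1 kPa (log2 fold change 0.40, adjusted p = 0.0218), whereas MVK itself had 0.08 (95% interval −0.15 to 0.31). RUSC1-AS1 was lower at 8 than at 1 kPa (−0.44, adjusted p = 0.0246).

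Per kilobase of exon, the scale on which genes can be compared with each other, FDPS had the highest level of the 30 at 60.7 CPM per kb over the 12 libraries. TM7SF2 followed at 33.4, SCD at 29, PMVK, the phosphomevalonate kinase, at 21.5 and SC5D at 21.3 CPM per kb. At the other end were MVD, the decarboxylase after PMVK, at 5.11, MVK at 3.06, EBP, a sterol isomerase, at 2.59 and CYP51A1 at 0.683 CPM per kb. Exon length was taken over all annotated isoforms, so genes with many isoforms are understated on this scale.

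**Figure D3:**
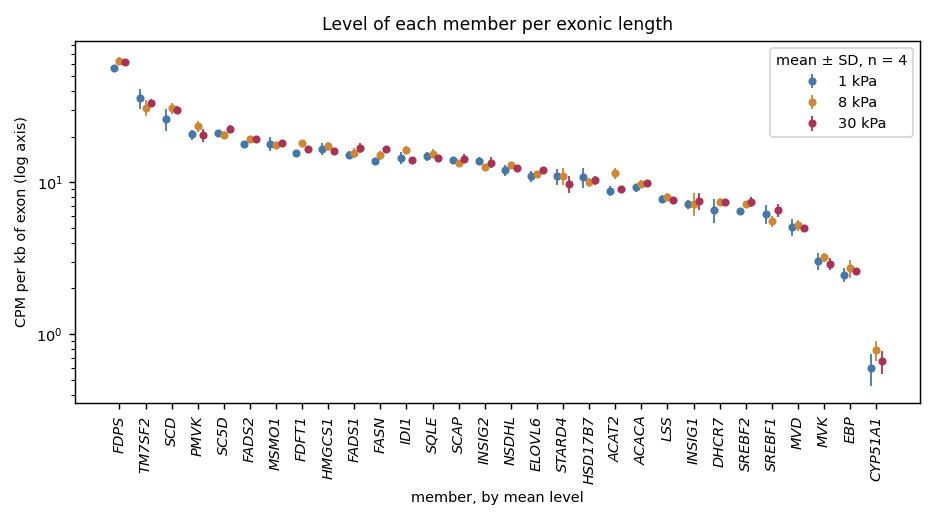
Level of each of the 30 members in CPM per kb of exon (log axis) at 1, 8 and 30 kPa, ordered by the mean over 12 libraries; points are means and bars the SD (n = 4). Levels run from 60.7 for FDPS to 0.683 for CYP51A1, and the 3 stiffnesses lie close together within each gene.

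None of the 6 regulators passed the threshold in any pair. SREBF2, which encodes the SREBP of the sterol genes and whose upstream stretch above holds the one TCACNCCAC match, had 35.8, 33.1, 34.1 and 35.2 CPM at 1 kPa, 40.2, 37.3, 37.8 and 40.0 CPM at 8 kPa and 41.0, 43.3, 36.1 and 39.2 CPM at 30 kPa. Every library at 8 or 30 kPa stood above every library at 1 kPa, and 8 and 30 kPa overlapped. The log2 fold change of SREBF2 was 0.17 for 8 against 1 kPa (95% interval 0.04 to 0.30, adjusted p = 0.0824), 0.04 for 30 against 8 kPa (−0.09 to 0.17) and 0.21 for 30 against 1 kPa (0.08 to 0.34, adjusted p = 0.0875). Non-overlap in the upward direction held for 9.41% of all tested genes for 8 against 1 kPa and for 5.33% for 30 against 1 kPa.

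SREBF1, which encodes the SREBP more tied to fatty acid genes, had 31.1, 31.5, 23.8 and 25.4 CPM at 1 kPa, 23.4, 27.5, 23.5 and 25.5 CPM at 8 kPa and 27.8, 33.6, 28.3 and 27.6 CPM at 30 kPa. The 1 kPa libraries fell into a higher pair above every 8 kPa library and a lower pair within the 8 kPa range. All 30 kPa libraries exceeded all 8 kPa libraries, the closest by 27.6 against 27.5 CPM. Its log2 fold change was 0.23 for 30 against 8 kPa (95% interval 0.02 to 0.44, adjusted p = 0.241), −0.16 for 8 against 1 kPa (−0.37 to 0.05) and 0.07 for 30 against 1 kPa (−0.14 to 0.28). A group gap in this direction occurred in 4.79% of all tested genes.

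INSIG1, the sterol-responsive anchor of SCAP and itself a classic SREBP target, had 21.7, 23.3, 20.2 and 23.2 CPM at 1 kPa, 20.3, 28.0, 19.3 and 21.7 CPM at 8 kPa and 22.9, 26.5, 19.3 and 24.8 CPM at 30 kPa. Its libraries overlapped at all stiffnesses, and the log2 fold change was 0.02 for 8 against 1 kPa (95% interval −0.24 to 0.28) and 0.08 for 30 against 1 kPa (−0.17 to 0.33). INSIG2, the less sterol-responsive INSIG, had 37.2, 38.2, 35.2 and 32.9 CPM at 1 kPa, 32.1, 32.4, 34.8 and 31.2 CPM at 8 kPa and 36.8, 34.9, 37.3 and 30.7 CPM at 30 kPa. The groups overlapped, with a log2 fold change of −0.13 for 8 against 1 kPa (95% interval −0.29 to 0.02). SCAP, the SREBP escort, stood at 64.0 ± 2.66, 61.1 ± 2.27 and 65.1 ± 4.46 CPM at 1, 8 and 30 kPa. STARD4, a soluble sterol carrier, stood at 60.9 ± 7.24, 61.0 ± 7.39 and 53.8 ± 6.91 CPM in that order, and its log2 fold change of −0.18 for 30 against 1 kPa had a 95% interval of −0.41 to 0.05.

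Among the fatty acid enzymes, FASN, the multi-enzyme synthase that makes palmitate, lies at chr17:82078333-82098332 on the minus strand. It had 114, 124, 117 and 117 CPM at 1 kPa, 128, 130, 119 and 140 CPM at 8 kPa and 141, 140, 147 and 144 CPM at 30 kPa. All 30 kPa libraries stood above all 1 kPa libraries, while 8 kPa overlapped 1 kPa through replicate 3 and its replicate 4 reached the 30 kPa libraries. FASN rose 1.21-fold at 30 kPa relative to 1 kPa (log2 fold change 0.28, SE 0.0534, adjusted p = 0.0181). For 8 against 1 kPa the log2 fold change was 0.13 (95% interval 0.02 to 0.25, adjusted p = 0.107), and for 30 against 8 kPa it was 0.14 (0.03 to 0.26, adjusted p = 0.195). The FASN call did not hold when either of 2 libraries at 1 kPa was left out (replicate 1, adjusted p = 0.0596, or replicate 3, 0.0558). Nor did it hold when 30 kPa replicate 3 (0.0769) or replicate 4 (0.0562) was left out. For 30 against 8 kPa FASN passed only without 8 kPa replicate 4 (0.19, adjusted p = 0.0473). The FASN call for 30 against 1 kPa was also lost with an offset for gene length and GC content (log2 fold change 0.22, adjusted p = 0.0684).

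SCD, the stearoyl-CoA desaturase that makes monounsaturated fatty acids, had 157, 110, 136 and 158 CPM at 1 kPa, 184, 159, 161 and 153 CPM at 8 kPa and 163, 172, 148 and 162 CPM at 30 kPa. The wide range at 1 kPa came from replicate 2 at 110 CPM, and the highest 1 kPa libraries lay inside the range at 8 and 30 kPa. Its log2 fold change was 0.23 for 8 against 1 kPa (95% interval 0.02 to 0.44, adjusted p = 0.133) and 0.20 for 30 against 1 kPa (−0.01 to 0.41). FADS2, a front-end desaturase of polyunsaturated fatty acids, had 95.9, 86.2, 88.0 and 87.0 CPM at 1 kPa, 99.8, 99.8, 93.5 and 93.0 CPM at 8 kPa and 95.8, 100, 93.9 and 94.9 CPM at 30 kPa. Only 1 kPa replicate 1 reached the levels of the stiffer surfaces, and the log2 fold change for 8 against 1 kPa was 0.11 (95% interval 0.01 to 0.22, adjusted p = 0.137).

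FADS1, the partner desaturase, lies on the strand opposite FADS2, and the annotated genes share 29694 bases, so some of their reads may not be told apart. FADS2 also shares 4265 bases with FEN1 on the same strand, where a strand setting would not part the reads. FEN1 had a log2 fold change of 0.29 for 8 against 1 kPa (adjusted p = 0.0669). FADS1 stood at 120 ± 7.93, 124 ± 8.82 and 134 ± 10.9 CPM at 1, 8 and 30 kPa. ACACA, the acetyl-CoA carboxylase that makes malonyl-CoA for FASN, stood at 102 ± 6.22, 107 ± 6.79 and 110 ± 2.29 CPM in that order. ELOVL6, which lengthens palmitate, stood at 72.9 ± 6.10, 75.1 ± 3.85 and 80.1 ± 2.42 CPM. The mean of each of these 3 genes followed the order of stiffness, and none passed the test. All 6 fatty acid enzymes had a positive log2 fold change for 8 against 1 kPa (0.04 to 0.23) and for 30 against 1 kPa (0.10 to 0.28). These comparisons share the 1 kPa libraries. Their summed level was 643 ± 9.15, 696 ± 18.9 and 723 ± 21.1 CPM (SD, n = 4) in order of stiffness.

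Depth class differed between the groups of each of these calls. With depth class (shallow or deep) as a term in the fit, the log2 fold change of ACAT2 for 8 against 1 kPa was 0.49 (adjusted p = 0.0658), that of FDFT1 was 0.24 (adjusted p = 0.0928), and that of FASN for 30 against 1 kPa was 0.26 (adjusted p = 0.466). No gene of the 17960 passed in those pairs in that fit, in which 8 kPa replicate 1 alone links the depth classes. Within the 5 shallow libraries, 8 kPa replicate 1 stood above all 4 libraries at 1 kPa in 10 members, namely ACAT2, MVK, PMVK, FDFT1, SQLE, LSS, SREBF2, FADS2, SCD and FASN. It stood below all of them in 4, TM7SF2, INSIG2, SREBF1 and SCAP. Over all tested genes the single library stood above in 29.9% and below in 30.6%. Within the deep libraries, the 4 at 30 kPa lay below the 3 at 8 kPa without overlap in ACAT2, IDI1, FDFT1 and NSDHL, a sterol dehydrogenase, and above them in SREBF1. Over all tested genes this held for 7.30% and 5.66%.

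Other markers moved with the same groups. The summed level of 10 G2/M cell cycle genes was 591 ± 91.5, 816 ± 53.5 and 826 ± 59.3 CPM (SD, n = 4) on 1, 8 and 30 kPa. All 10 passed the test as higher at 8 than at 1 kPa, and 8 of the 10 as higher at 30 than at 1 kPa. The mitochondrially encoded share of counts spanned 11.3% to 14.8%, 10.2% to 11.5% and 11.7% to 13.2% in that order. Of 9 adrenergic markers 8 were tested, all with a positive log2 fold change for 8 against 1 kPa, and PHOX2A and STMN2 passed as higher at 8 kPa. For 30 against 1 kPa, PHOX2A was higher (0.52, adjusted p = 0.0475). Of the 8 mesenchymal markers 2 passed as lower, PRRX1 (−0.35, adjusted p = 0.0144) and COL3A1 (−0.52, adjusted p = 0.0159), and 0 as higher. The log2 fold changes of these 8 markers were positive in 4 and negative in 4 in that pair. For 8 against 1 kPa they were negative in all 8 (median −0.1), and none passed. In that comparison 3 of the 8 had an unadjusted p under 0.05, against 31.2% of all tested genes. The endothelial marker PECAM1 had −1.75 for 30 against 1 kPa (adjusted p = 0.0521) and −1.75 for 30 against 8 kPa (adjusted p = 0.133), and it passed the test of any difference (adjusted p = 0.0333). The part of these shifts in the values of ACAT2, FDFT1 and FASN was not tested.

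**Figure D4:**
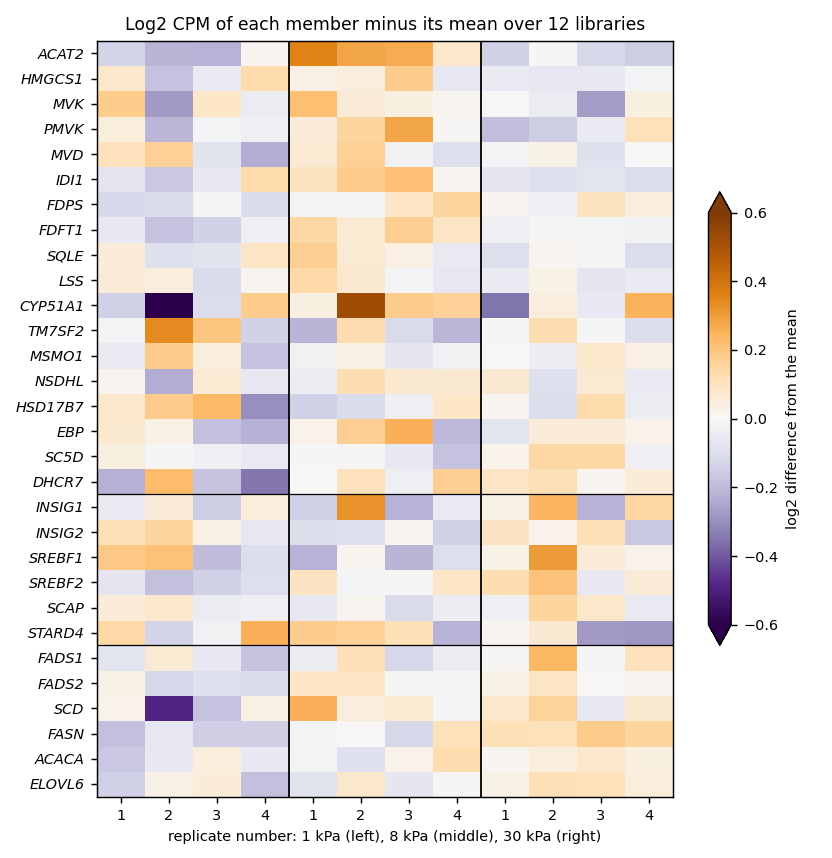
Log2 CPM of each member in each library minus its mean over the 12 libraries; columns are replicates 1 to 4 at 1 kPa (left), 8 kPa (middle) and 30 kPa (right), and horizontal lines part sterol enzymes, regulators and fatty acid enzymes. ACAT2 and FDFT1 are warm across the 4 columns of 8 kPa, FASN is cool at 1 kPa and warm at 30 kPa, and most other rows mix both colours within a stiffness.

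Libraries of one stiffness also differed from each other. At 30 kPa replicate 2 was the highest of the 4 in 17 of the 30 members (8 of 18 sterol enzymes, 5 of 6 regulators and 4 of 6 fatty acid enzymes). At 8 kPa replicate 4 was the lowest in 14 (10 of 18, 2 of 6 and 2 of 6 in that order). At 1 kPa replicate 2 was the highest in 10 and the lowest in 12. The same shares over all tested genes were not taken. The median coefficient of variation of the members between libraries was 7.99% at 1 kPa, 6.64% at 8 kPa and 5.06% at 30 kPa. Depth also differed between the stiffnesses, and its part in this order was not tested. The value over all tested genes was not taken. After the group means were removed, Pearson's r of log2 CPM between members over the 12 libraries had a median of 0.07 in the 153 pairs of sterol enzymes, 0.27 in the 15 pairs of regulators and −0.14 in the 15 pairs of fatty acid enzymes. The points share library and depth, so these are descriptions. The most alike pairs were ACAT2 with SQLE (r = 0.89), ACAT2 with STARD4 (0.85), HMGCS1 with FDFT1 (0.85), TM7SF2 with ELOVL6 (0.85) and HMGCS1 with IDI1 (0.84). Opposite deviations were as large, as for FDPS with LSS (r = −0.93), FDFT1 with MSMO1 (−0.88) and HMGCS1 with DHCR7 (−0.87).

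Genes around the pathway were described from 4 further lists. Of 21 genes of acetyl-CoA supply and fatty acid elongation none passed in any pair, with median log2 fold changes of 0.01 for 8 against 1 kPa, 0.03 for 30 against 8 kPa and 0.02 for 30 against 1 kPa. At an unadjusted p under 0.05 there were 2, 3 and 2 of them in those pairs, against 31.2%, 17.9% and 18.9% of all tested genes, to which the counts below compare as well. Of 16 genes of sterol transport, storage, efflux and LXR response none passed, with 2, 4 and 3 at an unadjusted p under 0.05. Their median log2 fold changes were −0.14, 0.09 and −0.03 in those pairs. The 95% interval lay within 0.5 of 0 in 8, 8 and 10 of the 16, against 56.5%, 65.1% and 62.3% of all tested genes. For 30 against 8 kPa 4 of the 16 were higher and 0 lower without overlap between groups, against 4.79% and 6.5%. Of 13 genes of the isoprenoid branches, which draw farnesyl units for ubiquinone, dolichol and protein prenylation, none passed, with 2, 0 and 0. Of 12 genes of SREBP cleavage and sterol-regulated degradation, 1 passed as higher and 1 as lower at 8 than at 1 kPa. The shares over all tested genes were 8.17% and 5.6%. In that pair 3 of the 12 had an unadjusted p under 0.05. None passed in the other pairs, where 1 and 1 had an unadjusted p under 0.05.

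TMEM97, a sterol-responsive membrane protein of the endoplasmic reticulum, had 22.6, 16.1, 18.6 and 20.3 CPM at 1 kPa, 24.5, 24.8, 24.8 and 23.2 CPM at 8 kPa and 22.6, 25.1, 23.3 and 24.7 CPM at 30 kPa. All 8 kPa libraries exceeded all 1 kPa libraries, and TMEM97 rose by 0.33 on the log2 scale (SE 0.0861, adjusted p = 0.0263). MARCHF6, a ubiquitin ligase of the endoplasmic reticulum that marks squalene epoxidase for degradation, had 376, 425, 373 and 365 CPM at 1 kPa, 302, 331, 304 and 333 CPM at 8 kPa and 366, 372, 343 and 333 CPM at 30 kPa. Its 8 kPa libraries were all below the 1 kPa libraries, and it fell by 0.28 on the log2 scale (SE 0.0646, adjusted p = 0.0164). The transcript of its substrate, SQLE, had a log2 fold change of 0.06 in the same comparison (95% interval −0.08 to 0.19).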

How the data were processed

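RNA was sequenced from 12 libraries of SK-N-SH cells, 4 each at 1, 8 and 30 kPa. HISAT2 and the build GRCh38 are named in the submitters' processing notes. The authors deposited a table of raw counts, with Ensembl identifiers as rows and libraries as columns. The counting tool, annotation and strand setting are not given in the sources used here. Symbols came from a name table (60463 of 60664 identifiers matched), positions and exon lengths from GENCODE v29, and upstream sequences from RefSeq on GRCh38.p14.

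The members, lists, tests and alternatives were chosen with earlier results of these data known. Low counts were filtered with filterByExpr (minimum count 10) and libraries scaled by TMM. All libraries were fitted together in edgeR 4.0.16 (R 4.3.3) with stiffness as the only term. Every adjusted p is from edgeR's quasi-likelihood F-test with Benjamini-Hochberg adjustment over all 17960 tested genes, threshold 0.05, unless DESeq2 is named. The biological coefficient of variation was 0.0966. SE is the log2 fold change divided by the root of F, and intervals are 95%. Genes with values per library were members past the threshold in a pair, the 3 with the smallest adjusted p in each group of members, and SREBF1, SREBF2, INSIG1, SCD and FASN. From the pathway lists up to 4 genes past the threshold were named per pair. Genes overlapping members were named for their position.

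Alternatives were median-ratio size factors, library size alone, no filter, a stricter filter (5 CPM in 4 libraries), DESeq2 1.42.0, limma-voom 3.58.1, fits of each pair alone, replicate number as a block, depth class as a term (parted at 2e+07 counts), an offset for length and GC, and leaving out each library. The steps were tested on simulated data with planted changes larger than those of the called members, so recovery at the size of these calls was not tested. No pair of libraries of a group agreed within sampling noise (chi-square per degree of freedom 3.04 to 42.9).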

Additional observations from a re-analysis of the deposited data

Results flagged for a closer look

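Of 90 groups of 4 libraries (30 members at 3 stiffnesses), 3 held a library far from the other 3; chance gives about 1 in 20. FDPS had 99.2 CPM in 1 kPa replicate 3, against 91.9 to 92.5 CPM in the other libraries at 1 kPa. SREBF1 had 33.6 CPM in 30 kPa replicate 2, against 27.6 to 28.3 CPM in the others at 30 kPa. STARD4 had 50.0 CPM in 8 kPa replicate 4, against 63.1 to 65.7 CPM in the others at 8 kPa.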

How the results depend on the processing

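For 8 against 1 kPa the 2 members called became 4 with the replicate block (ACAT2, FDFT1 and FDPS higher, TM7SF2 lower) and 0 with depth class as a term. For 30 against 8 kPa the count of 0 became 1 without a filter (ACAT2 lower) and 2 with DESeq2 (ACAT2 and IDI1 lower). For 30 against 1 kPa the count of 1 became 0 with depth class as a term and 0 with the length and GC offset. The test of any difference called 5 members with DESeq2 and 0 with depth class as a term, in place of 3, and the departure of 8 kPa called 1 without a filter, in place of 3. The causes were not tested, beyond the single library that links depth classes. Leaving out each library gave 1 to 3 members for 8 against 1 kPa, 0 to 3 for 30 against 8 kPa, 0 to 2 for 30 against 1 kPa, 1 to 4 for any difference and 0 to 3 for the departure. The 3 called for 30 against 8 kPa came without 8 kPa replicate 4 (ACAT2 and IDI1 lower, FASN higher). ACAT2 at 8 against 1 kPa passed in 12 of 12 such fits (adjusted p 0.00392 to 0.0392), FDFT1 in 11 and FASN at 30 against 1 kPa in 8.

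The labels do not say what a replicate number marks. Deviations of same-numbered libraries correlated from −0.134 to 0.369, positive in 11 of 12 pairs and over 0.1 in 6, and 5 of 12 libraries correlated best with their own number in both other groups. This is a hint of pairing from the data, not the design, so the block was kept as an alternative.

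Directions turned only for small changes. With depth class as a term INSIG1 had −0.12 for 8 against 1 kPa and −0.10 for 30 against 1 kPa, SREBF1 −0.05 for 30 against 1 kPa, and for 30 against 8 kPa SCD had 0.03 and FADS2 0.01, as FADS2 did with the stricter filter (0.01). Without single libraries the log2 fold change for 30 against 1 kPa ran from 0 to 0.08 for ACAT2, −0.08 to 0.02 for INSIG2 and 0 to 0.14 for SREBF1, for 8 against 1 kPa from −0.11 to 0.08 for INSIG1, and for 30 against 8 kPa from −0.05 to 0.01 for FDPS, 0 to 0.19 for INSIG1, −0.02 to 0.01 for FADS2 and −0.06 to 0.03 for SCD. Of the values of the 10 members given per library, 624 kept direction and side of the threshold, 20 turned, 7 gained and 9 lost the call. Low counts limit CYP51A1, EBP, MVK and MVD.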
